A study of Mus musculus with 2 samples.

Results

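The 10 genes described here were grouped as mitotic entry and anaphase-promoting complex (APC/C) genes, though Mki67, Psrc1 and Depdc1b rather mark or shape dividing cells. The 10 are Cdc20, Ube2c, Pttg1, Ccnb1, Ccnf, Plk1, Cdca3, Mki67, Psrc1 and Depdc1b. They were taken by gene symbol from the authors' deposited table of 2381 rows, and each symbol had 1 row. All 10 were selected on these same FPKM values, with their difference between the genotypes known, so their levels and fold changes are given as a description and not as a test. The table came from RNA sequencing of mouse embryo cortex at stage E14.5, in 2 samples of a B6/129 background. The title of the series names the question, whether the fate of neuroprogenitors depends on a cell cycle that Trrap controls through histone acetylation. The Trrap-deleted sample was TrrapF/F NestinCre+. The control was entered as wild type, but its description gives TrrapF/+ NestinCre+, so both samples carried the Cre and at least 1 floxed allele. Nestin-Cre acts in neural progenitors and the cells that descend from them, and blood, vessel and meningeal cells largely keep the gene. The labels give neither the sex of the embryos nor the number pooled.

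Neither genotype had a second library, so the differences have no replicate error and none could be tested here. Values are FPKM (fragments divided by transcript length and by the size of the library), and "listed" means that a locus passed the authors' own test. Sequencing depth is unknown. A gene that is not listed may be unchanged, too weakly expressed or absent from the authors' annotation, and these cannot be told apart.

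Mitosis starts when cyclin B1 activates the kinase Cdk1, with help from the kinase Plk1, and it ends when the APC/C marks cyclin B1 and securin for destruction. The APC/C is a ubiquitin ligase that needs an activator such as Cdc20 and a ubiquitin-conjugating enzyme such as Ube2c. In the embryonic cortex the dividing cells are the progenitors of the ventricular and subventricular zones, while neurons have left the cycle. Transcripts of many mitotic genes peak in G2 and M phase. Many of their promoters carry CCAAT boxes, bound by the factor NF-Y, and a cell cycle genes homology region (CHR), bound by the DREAM repressor and by the B-Myb and FoxM1 activator complexes. Trrap is a scaffold of histone acetyltransferase complexes that transcription factors such as Myc and E2F bring to promoters.

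Promoter windows from RefSeq (GRCm38.p6) were available for 9 of the 10 genes, and Depdc1b had none. Each window spans 250 bases before to 50 bases after an annotated transcription start. The stretches below show the 150 bases before and 20 bases after the start for 6 genes, chosen because they show how the CHR and CCAAT boxes are placed near the start of genes that were lower together. Capitals mark a CHR (TTTGAA or TTTAAA, or one of the variant forms TTCGAA or CTTGAA) or a CCAAT box, on either strand, and all are written 5′ to 3′ on the strand of the gene.
Cdc20, chr4:118437324-118437493, minus strand: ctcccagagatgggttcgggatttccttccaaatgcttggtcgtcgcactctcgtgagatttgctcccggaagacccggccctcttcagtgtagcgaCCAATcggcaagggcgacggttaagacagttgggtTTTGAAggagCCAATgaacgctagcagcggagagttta
Ube2c, chr2:164769779-164769948, plus strand: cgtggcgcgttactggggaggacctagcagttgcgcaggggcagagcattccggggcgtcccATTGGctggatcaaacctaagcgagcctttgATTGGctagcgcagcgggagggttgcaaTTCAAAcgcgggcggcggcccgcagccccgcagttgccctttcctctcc
Ccnb1, chr13:100786467-100786636, minus strand: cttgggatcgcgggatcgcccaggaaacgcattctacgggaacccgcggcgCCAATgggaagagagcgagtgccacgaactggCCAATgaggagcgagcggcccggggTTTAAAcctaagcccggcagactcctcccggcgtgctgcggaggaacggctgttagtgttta
Ccnf, chr17:24251390-24251559, minus strand: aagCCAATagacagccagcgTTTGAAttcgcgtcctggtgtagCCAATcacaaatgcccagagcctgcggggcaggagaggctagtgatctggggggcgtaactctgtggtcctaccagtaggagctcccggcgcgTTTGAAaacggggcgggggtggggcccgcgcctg
Plk1, chr7:122159285-122159454, plus strand: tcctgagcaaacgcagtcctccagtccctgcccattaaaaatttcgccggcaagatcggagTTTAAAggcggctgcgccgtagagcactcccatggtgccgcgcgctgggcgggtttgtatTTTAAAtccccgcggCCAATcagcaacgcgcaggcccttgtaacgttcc
Psrc1, chr3:108383654-108383823, plus strand: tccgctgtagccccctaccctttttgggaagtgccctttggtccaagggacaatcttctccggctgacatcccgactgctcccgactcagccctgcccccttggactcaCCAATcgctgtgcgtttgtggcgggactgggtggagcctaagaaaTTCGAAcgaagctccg

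All 10 genes were lower in the Trrap-deleted cortex. Lower values made up 42.0% of all rows of the table (999 of 2381), and since the genes were picked for being lower nothing is read from their count. Their median log2 fold change was -1.09, or 2.13-fold lower, and the range ran from -1.45 for Psrc1 to -0.58 for Ccnb1. Over the 2376 rows not at 0 in either library the median was 0.54. Rescaling so that this median became 0 could only move the 10 genes further down, so it was no check on their direction. All 10 stayed lower when both libraries were given the same summed FPKM over the rows of the table (a shift of -0.35). Both scalings rest on rows that passed the authors' test and not on whole libraries. As deposited, 6 were at least 2-fold lower (Ube2c, Pttg1, Ccnf, Cdca3, Psrc1 and Depdc1b), against 13.6% of all rows, but the number was 1 (Psrc1) under equal summed FPKM and 10 under a median of 0. The summed level of the 10 genes went from 446 to 231 FPKM, or 51.8% of the control. In whole tissue, fewer mitotic cells and less RNA per mitotic cell cannot be told apart.

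**Figure D1:**
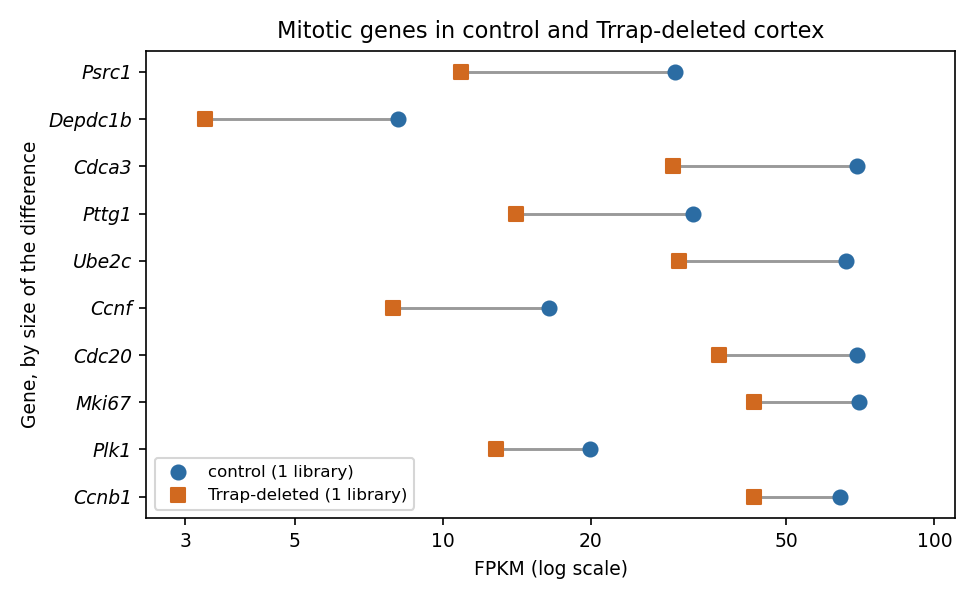
FPKM (log axis) of the 10 genes in the control library (circles) and the Trrap-deleted library (squares), 1 library each, ordered by log2 fold change with the largest difference on top. Every square lies left of its circle, and the line between them is longest for Psrc1 and shortest for Ccnb1.

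Among the parts of the APC/C pathway, the activator, the E2 enzyme and a substrate were all lower. Cdc20, which activates the APC/C at the metaphase to anaphase transition, went from 69.7 FPKM in control to 36.5 in Trrap-deleted cortex (1.91-fold lower, q = 0.00182 in the authors' deposited table). Its row spans 9260 bases (chromosome 4, 118100698 to 118109957 on mm9), 2.08 times the length of the gene in GENCODE M21. The gene Elovl1, a fatty acid elongase, overlaps Cdc20 on the opposite strand and was not listed on its own, so the Cdc20 value is uncertain. Ube2c, the E2 enzyme that attaches the first ubiquitin (chromosome 2, 164595398 to 164605467), went from 66.2 to 30.2 FPKM, which is 2.19-fold lower. The row of Ube2c is 1.13 times as long as the annotated gene, and Tnnc2, a muscle troponin gene on the opposite strand, overlaps it without being listed.

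Pttg1 encodes securin, the APC/C substrate that holds back the separation of sister chromatids (chromosome 11, 43233726 to 43239753). Its level went from 32.2 to 14.1 FPKM, 2.29-fold lower. Relative to cyclin B1, the other classical substrate, Pttg1 stood at 0.503 in the control library and 0.329 in the Trrap-deleted library. The Ube2c to Cdc20 ratio moved less, from 0.950 to 0.828. The members of this group thus differed from one another in how far they were lower, and without replicates the spread of such ratios between embryos is unknown.

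Among the genes of mitotic entry, the cyclin and kinase of the Cdk1 switch had smaller differences than the ubiquitin ligase adaptors. Ccnb1, cyclin B1 (chromosome 13, 101548451 to 101556525), stood at 64.2 and 42.9 FPKM in control and Trrap-deleted cortex, 1.50-fold lower. Plk1, the polo-like kinase that promotes Cdk1 activation and spindle assembly (chromosome 7, 129302951 to 129313389), stood at 19.99 and 12.8 FPKM, 1.56-fold lower. These are the smallest differences of the 10, and the Plk1 to Ccnb1 ratio was close in both libraries, 0.312 and 0.299. Ccnb1 also had the highest q-value of the 10 genes in the authors' deposited table (0.0192).

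Ccnf, cyclin F (chromosome 17, 24359478 to 24388292), is the F-box subunit of an SCF ubiquitin ligase and does not activate a Cdk. It went from 16.4 to 7.94 FPKM, 2.07-fold lower. Cdca3, an adaptor tied to destruction of the Cdk1 inhibitor Wee1 and itself an APC/C substrate (chromosome 6, 124779527 to 124783825), went from 69.7 to 29.4 FPKM, 2.37-fold lower. In the control, Cdca3 had the second highest FPKM of the 10 genes, and in the Trrap-deleted cortex it had the fifth. Ccnb1 moved from the fifth place to the second.

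The remaining genes mark or shape dividing cells. Mki67 encodes Ki-67, the coat protein of mitotic chromosomes that is used as a proliferation marker (chromosome 7, 142881320 to 142908090), and it had the highest level of the 10 in both libraries, 70.2 and 43.1 FPKM. Its difference was modest (1.63-fold lower), yet its q-value in the authors' deposited table was the smallest of the 10 (3.42e-10), so the order by q-value is not the order by fold change. Psrc1, a microtubule-associated protein of the mitotic spindle (chromosome 3, 108186746 to 108191149), went from 29.7 to 10.9 FPKM and was 2.73-fold lower. Depdc1b, a DEP domain protein linked to loss of adhesion before mitosis (chromosome 13, 109106526 to 109197976), was the weakest of the 10, at 8.12 and 3.29 FPKM, and 2.47-fold lower. Relative to Mki67, Psrc1 went from 0.423 to 0.253 of its level, and Depdc1b from 0.116 to 0.0765.

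The size of a listed difference depended on level, so each gene was ranked among the 200 rows nearest to it in mean FPKM. Only 6 of the 200 rows were further down than Psrc1, 6 further down than Pttg1 and 6 further down than Cdca3. For Ube2c the number was 8, for Depdc1b 14, for Ccnf 20 and for Cdc20 22. Mki67 had 45 rows further down, Plk1 59 and Ccnb1 68. Each gene lay below the median of its 200 rows, which ran from 0.85 around Depdc1b to -0.43 around Mki67. Where that median was above 0, a gene picked for being lower had to lie below it, so nothing is read from this. Of the 200 rows, 56 were lower around Depdc1b, 72 around Pttg1 and 111 around Mki67. Thus Ccnb1 and Mki67, at a level where most listed loci were lower, stood nearer to the middle of their neighbours than Psrc1 and Pttg1 did.

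**Figure D2:**
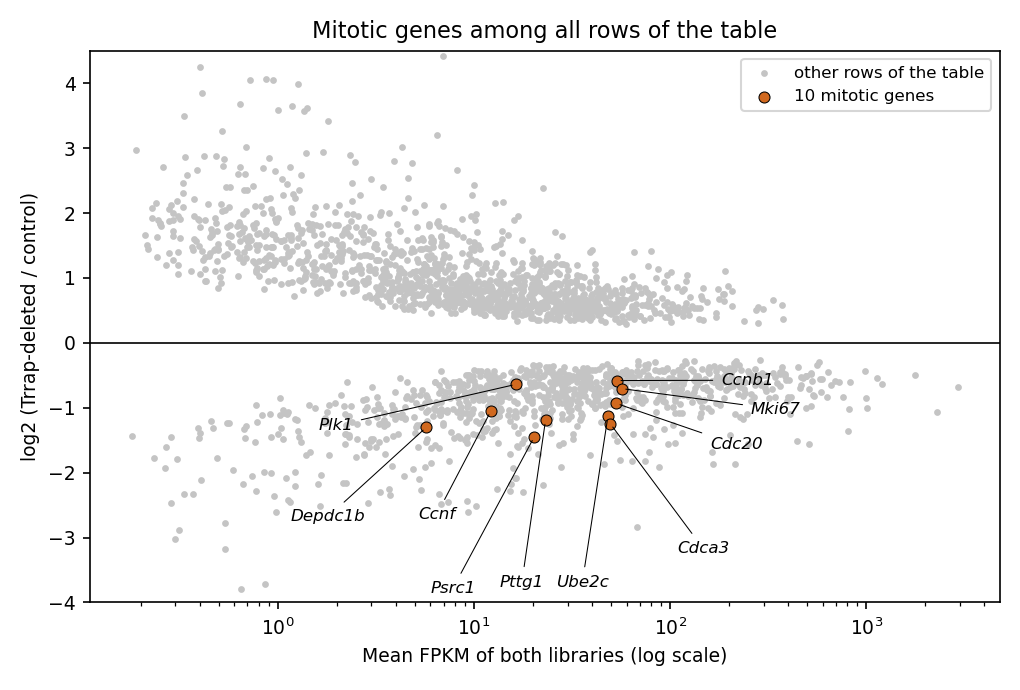
Mean FPKM of both libraries (log axis) against the log2 fold change of Trrap-deleted over control for every row not at 0 in either library, with the 10 genes named; 10 rows lie outside the plotted range of -4 to 4.5. The empty band around 0 is where differences did not pass the authors' test, and the 10 genes lie in the lower cloud at mean levels from 5.71 to 56.6 FPKM.

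Genes with the most similar pair of values were found by their distance from the median of the 10 genes (45.5 FPKM in control and 20.4 in Trrap-deleted cortex) in log2 FPKM. The nearest over these 2 libraries was Trp53, which encodes the tumour suppressor p53, at 47.8 and 19.6 FPKM (distance 0.0908). Vat1 (43.0 and 19.7 FPKM), Sema6c (48.2 and 21.1), Dctpp1 (41.8 and 20.5) and Stmn4 (48.4 and 21.7) followed. None of these 5 is in a cell-cycle or marker list used here.

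Most listed genes of the wider mitotic machinery were lower as well. Of 143 symbols in 9 lists of APC/C, mitotic entry, checkpoint, cohesin, condensin, kinetochore and spindle genes, 42 were listed (29.4%), while 9.17% of protein-coding symbols in RefSeq were listed in the table. Without the 10 genes, 32 of 133 symbols were listed, 28 lower (27 under equal summed FPKM, 29 under a median of 0) and 4 higher, at a median log2 fold change of -0.72; 3.36% of protein-coding symbols were listed lower. The RefSeq shares also count genes too weakly expressed here to be listed, so they may lie below the share among expressed genes. That share could not be computed, because only rows marked significant were given. This limit holds wherever a list is set beside the listed share of protein-coding symbols. The lists were drawn up with earlier results of these data known, so these counts are descriptions.

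**Figure D3:**
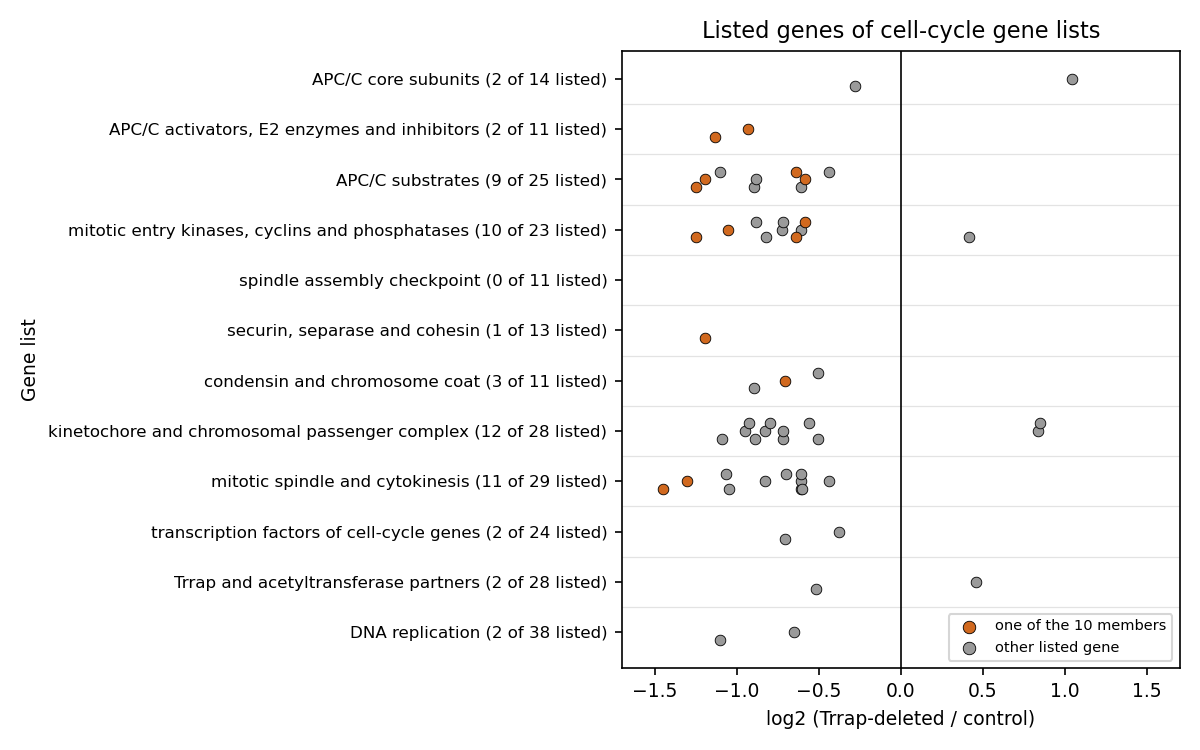
log2 fold change of Trrap-deleted over control for each listed gene of 12 gene lists, with the 10 genes in orange and other listed genes in grey; a gene in several lists appears in each, and the vertical offset only separates points. Spindle, substrate and condensin genes lie left of 0, the checkpoint list is empty, and the kinetochore, mitotic entry, APC/C core and Trrap partner lists hold points on the right.

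Of 14 core subunits of the APC/C itself 2 were listed (14.3%, beside 9.17% of all protein-coding symbols), in opposite directions as deposited: Anapc13 was higher (79.9 to 165 FPKM, 2.06-fold) and Anapc5 was lower (131 to 108 FPKM, 1.21-fold), a direction that turned to higher when the libraries were rescaled to equal summed FPKM. The other 12 were not listed. Of 11 activators, E2 enzymes and inhibitors, Cdc20 and Ube2c were the only ones listed (18.2%). Fzr1, the activator that acts from late mitosis into G1, was not. None of 11 genes of the spindle assembly checkpoint, which holds Cdc20 in check, was listed. Pttg1 was the only listed gene of 13 for securin, separase and cohesin (7.69%). With 9.17% of all protein-coding symbols listed, nothing is read from such small counts. Cdc20, Ube2c and Pttg1 were moreover picked for being lower.

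All 9 listed APC/C substrates of 25 were lower (36.0% of the list, beside 3.36% of protein-coding symbols listed lower), and their median was -0.88 on the log2 scale. Among the 9, Cdca3, Pttg1, Plk1 and Ccnb1 were picked for being lower, so nothing is read from the count. The others include Ckap2, a spindle protein (22.7 to 16.8 FPKM), and Rrm2 (63.9 to 29.8 FPKM). Rrm2 is a ribonucleotide reductase subunit that is also a target of cyclin F. Of 23 mitotic entry genes 10 were listed (43.5%, beside 9.17% of all protein-coding symbols), 9 lower and 1 higher. The lower ones hold Cdca3, Ccnf, Plk1 and Ccnb1, which were picked for being lower. Ccnb2, cyclin B2, was lower (24.5 to 13.3 FPKM) and Ensa, an inhibitor of the phosphatase that opposes Cdk1, was higher (56.2 to 74.9 FPKM), a direction that turned to lower under a median of 0. Ccna2, cyclin A2, shares a row with Bbs7 and was not counted.

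The machinery that Mki67, Psrc1 and Depdc1b work with showed the same direction in most listed genes. All 11 listed spindle and cytokinesis genes of 29 were lower, at a median log2 fold change of -0.70. This was 37.9% of the list, beside 3.36% of protein-coding symbols listed lower. Psrc1 and Depdc1b are among the 11 and were picked for being lower. The others include Depdc1a, the paralogue of Depdc1b (9.91 to 4.74 FPKM), and Cep55, which acts at the final cut between daughter cells (14.8 to 9.73 FPKM). Of 28 kinetochore and passenger complex genes 12 were listed (42.9%, beside 9.17% of all protein-coding symbols), 10 lower and 2 higher. The lower ones include the kinetochore gene Cenpl (11.97 to 5.63 FPKM), Spc25 of the microtubule-binding Ndc80 complex (52.5 to 27.2 FPKM), Ska2 (36.8 to 19.4 FPKM, under its older symbol Fam33a) and Incenp, the scaffold of the passenger complex (33.7 to 22.9 FPKM). The 2 exceptions, chosen after their values were seen, were Cenpm (7.61 to 13.5 FPKM) and Cenpn (12.2 to 22.0 FPKM), both higher. The condensin subunit Ncapd2 (65.6 to 46.1 FPKM) and the chromosome-binding kinesin Kif22 (30.0 to 16.2 FPKM) were lower beside Mki67, and 8 others of 11 chromosome coat genes were not listed. The listed share was 27.3%, and it holds Mki67, which was picked for being lower.

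A further pair of lists bears on the regulators of these promoters. Of 24 transcription factors of cell-cycle genes, E2f3 (15.6 to 9.60 FPKM) and Rbbp4, a subunit of the DREAM core and of chromatin complexes (179 to 138 FPKM), were listed, both lower. Foxm1, Mybl2 and the genes Lin9, Lin37, Lin52 and Lin54 were not listed. Of 28 genes for Trrap and its acetyltransferase partners, Morf4l2 was lower (204 to 142 FPKM) and Atxn7 higher (9.03 to 12.4 FPKM), a direction that turned to lower under the rescaling to a median of 0. Trrap had no row, and the genotype labels could not be checked against it. Of 38 DNA replication genes only Rrm2 and Dbf4, the activator of the Cdc7 kinase (25.9 to 16.5 FPKM), were listed, both lower (5.26% of the list). The shares listed in these 3 lists were 8.33%, 7.14% and 5.26%, each below the 9.17% of all protein-coding symbols. That share also counts genes too weakly expressed to be listed, and nothing is read from such small counts.

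Motifs were counted in the windows of all 9 genes, including Mki67, Cdca3 and Pttg1, whose stretches are not shown above. A CHR of any of the 4 forms was found in 9 of 9 windows (the first window of each gene), against 35.0% of the first windows of 17491 protein-coding genes and 37.3% of all 32851 windows. With TTTGAA or TTTAAA alone the count was 7 of 9, against 25.5% of protein-coding genes. A CCAAT box was found in 8 of 9, against 39.0%, and at least 2 boxes in 7 of 9, against 13.5%. Both motifs occurred together in 8 of 9 windows and in 14.3% of protein-coding genes. The E2F letters GCGGGAA and GCGCGAA, on either strand, occurred in none of the 9 windows and in 7.83% of protein-coding genes. The Cdca3 and Pttg1 windows counted here have starts that lie 646 and 1482 bases inside the outer end of the gene in RefSeq. A match describes letters and not a bound site.

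**Figure D4:**
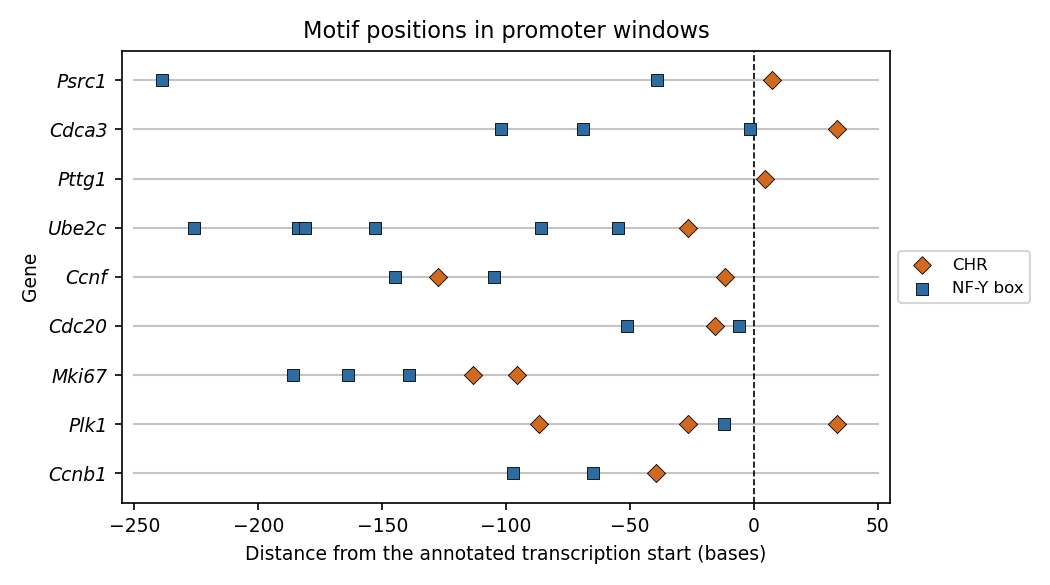
Position of each CHR (diamonds) and CCAAT box (squares, labelled NF-Y box) in the first promoter window of 9 genes, in bases from the annotated start (dashed line), with genes ordered from the largest difference on top to the smallest. Pttg1 has a CHR and no box, and Ube2c has the most boxes.

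Positions varied among the genes. In Ccnb1 the CHR TTTAAA began 42 bases before the start, with CCAAT boxes 67 and 99 bases before it. In Ube2c the CHR lay on the opposite strand 29 bases before the start, behind boxes at 57 and 88 bases, and 4 more boxes lay further out, of which 1 pair overlaps. Cdc20 had its CHR 18 bases before the start between boxes at 53 and 8 bases. Plk1 had 2 copies of TTTAAA before the start, at 89 and 29 bases, and a TTTGAA from base 31 after it. Ccnf had 2 copies of TTTGAA, at 130 and 14 bases before the start. Mki67, whose stretch is not shown, had them at 116 and 98 bases. In Cdca3 the only CHR lay after the start, from base 31. The Cdca3 start lies 646 bases inside the outer end of the gene in RefSeq, so that window may also miss a more upstream start. In Psrc1 the TTCGAA began at base 5 after the start, or 30 bases before it in a second window of that gene. Pttg1 had only a CTTGAA, from base 2 after the start; that start lies 1482 bases inside the outer end of the gene in RefSeq, so the window may miss a more upstream start.

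Of 23 further genes of the mitotic lists that were lower and had a window, 14 (60.9%) had both motifs. Among 87 mitotic genes that were not listed the count was 33 (37.9%). Of all 206 listed genes with both motifs 107 were lower (51.9%), against 489 of 1394 without both (35.1%). Among all 1600 listed genes with a window 37.25% were lower. The 107 include the 14 genes above and 8 of the genes that were picked for being lower, so nothing is read from the 51.9%. Outside the mitotic lists 85 of 182 listed genes with both motifs were lower (46.7%). No test was made of these differences. The share of lower rows also varied with level, at 18.5% in the lowest of 10 equal groups by mean FPKM and 82.8% in the highest. No share matched for level was computed, so nothing is read from the 46.7% either.

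Markers of other cells differed between the same 2 libraries. Microglial and macrophage markers were higher in 9 of 9 listed genes of 15 (summed 11.0 and 29.0 FPKM in control and Trrap-deleted cortex), meningeal markers in 5 of 5 of 13 (2.66 and 15.4 FPKM), endothelial and pericyte markers in 2 of 2 of 11 (2.07 and 4.24 FPKM) and choroid plexus markers in 1 of 1 of 7 (0.104 and 3.31 FPKM). Ventral telencephalic markers were lower in 4 of 5 listed of 15 (19.4 and 15.9 FPKM), and of 8 erythroid markers 1 was higher and 1 lower. In the 3 lowest of 10 equal groups of rows by mean level (up to 5.69 FPKM), 81.5%, 74.8% and 73.0% of rows were higher. In groups 9 and 10, from 52.8 FPKM upward, 61.6% and 82.8% of rows were lower. No listed marker was at 0. The labelled tissue was represented by listed cortical genes present in both libraries: Neurod6 (312 and 260 FPKM), Neurog2 (89.6 and 112) and Fezf2 (55.9 and 42.5); the direction of Neurod6 turned under equal summed FPKM and that of Neurog2 under a median of 0. Larger differences were in the progenitor markers Prom1 (24.9 and 8.32 FPKM), Vim (632 and 387) and Slc1a3 (30.7 and 55.1) and in the neuronal markers Stmn2 (158 and 53.9) and Mapt (70.3 and 44.1). Cortical progenitor markers were listed in 5 of 20 cases, 3 lower (4 under a median of 0) and 2 higher (803 and 580 FPKM summed), with Pax6, Sox2 and Eomes not listed, and cortical neuron markers in 5 of 15, all lower as deposited and 4 under equal summed FPKM (633 and 428 FPKM). Of 5 sex-linked transcripts 3 Y-linked ones were higher, at most 0.111 FPKM in the control and at least 3.99 in the Trrap-deleted library, and Xist was lower (313 and 142 FPKM). The sex make-up of the libraries thus differed along with genotype, and their effects cannot be told apart. The part of these differences in the levels of the 10 genes was not tested.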

How the data were processed

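One RNA library per genotype was compared. Per the submitters' processing notes, TopHat2 and build mm9 were used; no source used here names the software for counting or testing. The deposited table has the layout that Cuffdiff writes, and its 2 value columns were read as FPKM from that layout. Each p-value and q-value was deposited by the authors from their own test, and the table holds only rows they marked significant (highest q-value 0.0500). The log2 fold change deposited by the authors matched log2 of the FPKM ratio to within 1.18e-05. Depth is unknown.

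Log2 fold changes, counts and ranks among the 200 rows nearest in log2 mean FPKM were computed with Python 3.11.15 and pandas 2.3.3, without a pseudocount, and the ranking was checked on simulated data. Table loci are mm9, 1-based; GENCODE M21 and RefSeq (GRCm38.p6) supplied only names, gene lengths, neighbours and promoter windows. For a symbol with several rows the most abundant row was used, and rows of several symbols were left out of lists. The genes and lists were chosen with earlier results of these data known. Genes named were the 10 members, the listed genes of each list (where more than 6 were listed, the 3 largest and 2 smallest absolute log2 fold changes), and the 5 rows nearest to the members' median. Alternatives were other scalings, pseudocounts, thresholds and neighbour windows.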

Additional observations from a re-analysis of the deposited data

How the results depend on the processing

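The libraries were rescaled to a median log2 fold change of 0 over the table (a shift of 0.54) or to equal summed FPKM over its rows (a shift of -0.35). All 10 genes stayed lower under both, though the first could only move them further down. Both scalings rest on rows that passed the authors' test and not on whole libraries. The median log2 fold change of the 10 genes was -1.63 under the first rescaling, -0.75 under the second, -1.09 with a pseudocount of 0.1 and -1.03 with a pseudocount of 1. Under equal summed FPKM the values ran from -1.10 for Psrc1 to -0.24 for Ccnb1. At a q-value under 0.01, 9 of the 10 genes remained, without Ccnb1, and 6 were at least 2-fold lower (10 under a median of 0 and 1 under equal summed FPKM, both counts added after the data were seen). The median share of neighbouring rows further down was 8.5%, and 8% to 9.94% with 100 or 400 neighbours, 10 equal groups by level or without pseudogenes. Lower rows in the whole table numbered 647 at a q-value under 0.01 and 324 at 2-fold or more. Of the 38 lower genes of the mitotic lists 22 had a q-value under 0.01, and the count was 39 under a median of 0 and 37 under equal summed FPKM. Added after the data were seen was the rescaling of listed genes. It turned Anapc5 (0.068) and Neurod6 (0.082) to higher under equal summed FPKM, and Ensa (-0.13), Atxn7 (-0.087) and Neurog2 (-0.22) to lower under a median of 0, while the other named list genes kept their direction. No paired analysis was possible because each genotype had 1 library. FPKM without read totals sets no detection limit.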
